A study of Homo sapiens with 5 samples.

Results

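MYC was found without a peak of either mapped Mediator subunit at 1824 genomic regions of MIA PaCa-2 cells, a long-established line grown from a human pancreatic carcinoma. These MYC-only regions were defined by chromatin immunoprecipitation sequencing (ChIP-seq) peak lists. Overlapping MED17, MED30 and MYC peaks of the parental cells were merged, with 1 shared bp enough, on chromosomes 1 to 22 and X, and merged regions that held MYC peaks alone were kept. A further 2262 such regions, in stretches of over 2 Mb without any RefSeq gene, were dropped. The members made up 11.7% of the 15564 merged regions outside those stretches and were part of the 10115 regions that held MYC. Within 1 kb of the start or end of a protein-coding gene, called a gene boundary here, lay 523 of the members, and 1301 lay elsewhere. The presence of MYC and the absence of MED17 and MED30 peaks are what chose the members, so they are a description and not a finding.

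MYC is a transcription factor that binds DNA as a dimer with MAX, preferring the E-box letters CACGTG, and in cells with much MYC it is also found at many promoters without an E-box. Mediator is a large complex that carries signals from DNA-bound activators to RNA polymerase II at promoters and enhancers. MED17 belongs to its head module, and MED30 is a subunit found in animal Mediator. MYC drives genes for growth and protein synthesis, and pancreatic cancer cells commonly depend on it.

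MED17, MED30 and MYC were each mapped in parental MIA PaCa-2 cells under normal culture. Further MYC libraries came from teton shMED30 MIA PaCa-2 cells, in which doxycycline turns on a short hairpin that targets MED30: 1 without the drug and 1 after a treatment of 3 days. The 5 groups had 1 library each, so no comparison had a replicate check and no p-value was computed. All intervals are 95% intervals for counting error within these libraries only, and treat regions as independent. For MED17 and MED30, fixation used 2 mM disuccinimidyl glutarate (20 min) before 1% formaldehyde (10 min), and for MYC the formaldehyde step alone, so target and fixation cannot be told apart where lists differ. The parental lists held peaks to a q-value of 0.0499, and the hairpin-line lists to 0.0993 without and 0.0979 with doxycycline. Peak lists show neither the level of MED30 after induction nor the identity of the cells, and the parental and hairpin lines differ in the hairpin itself and in its handling.

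Fold enrichment is the authors' ratio of fragments at a peak's summit to the local background, in each list's own scale. Read totals are not part of the lists, but fold and p together gave the summit pileup and the background for 99.6% (parental MYC) to 99.9% of peaks per list. The lowest background was 2.56 fragments in parental MYC, 0.310 in the hairpin line without doxycycline and 0.186 with it. The lowest background of parental MYC was thus 8.27 times that of MYC without doxycycline, and with doxycycline it was 0.599 of that without. It is used here as a stand-in for sequencing depth, and its link to depth was not tested. A peak of the parental list that was missing from a hairpin-line list may therefore have been below detection there.

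The sequences that best show what some of these sites hold are the promoters of 6 strong members that carry a complete E-box upstream of the gene start. They are taken from RefSeq on GRCh38.p14, run 5′ to 3′ on the strand of the gene, lie outside the annotated gene, and have the E-box in capitals.
MLLT1 (chr19:6280167-6280225, minus strand): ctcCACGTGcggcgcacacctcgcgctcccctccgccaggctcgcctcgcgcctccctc
TBL1X (chrX:9463177-9463282, plus strand): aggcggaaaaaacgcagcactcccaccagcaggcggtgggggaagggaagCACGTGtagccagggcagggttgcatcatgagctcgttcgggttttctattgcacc
FAM13A (chr4:89057186-89057283, minus strand): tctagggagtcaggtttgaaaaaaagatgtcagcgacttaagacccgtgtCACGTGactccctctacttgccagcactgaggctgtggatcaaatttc
PSMB3 (chr17:38752491-38752558, plus strand): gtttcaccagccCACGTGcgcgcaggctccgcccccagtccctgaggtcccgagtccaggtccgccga
CNNM1 (chr10:99329234-99329339, plus strand): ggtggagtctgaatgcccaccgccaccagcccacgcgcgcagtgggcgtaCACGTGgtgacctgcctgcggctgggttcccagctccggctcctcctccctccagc
FOXK1 (chr7:4682073-4682178, plus strand): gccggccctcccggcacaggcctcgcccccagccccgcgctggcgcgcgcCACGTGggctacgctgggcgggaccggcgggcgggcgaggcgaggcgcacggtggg

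In MLLT1, TBL1X and CNNM1 the E-box lay 2, 4 and 7 bp from the MYC summit. It was 28 bp from the summit in FOXK1, 67 bp in PSMB3 and 94 bp in FAM13A. It began 247 bases before the gene start in MLLT1, 238 in PSMB3, 172 in FOXK1, 72 in CNNM1, 68 in TBL1X and 48 in FAM13A. The 6 genes have unlike functions: MLLT1 is a reader of acylated histones that works with transcription elongation factors, TBL1X is a subunit of the NCoR corepressor complex, PSMB3 is a proteasome subunit, FOXK1 is a forkhead transcription factor and CNNM1 belongs to a family of magnesium transport proteins.

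E-boxes were common in the promoters of MYC-only regions. RefSeq promoter windows of 300 bases, 250 before to 50 after a gene start, could be matched to 335 members, 253 of them at a protein-coding boundary and 82 elsewhere, each represented by the window nearest its summit. CACGTG, read on both strands, was present in 65 of the 335 windows (19.4%, interval 15.3 to 24.1), against 7.27% of all 34961 promoter windows. At the boundary alone it was present in 51 of 253 windows (20.2%, interval 15.4 to 25.6). It was present in 13.7% of the windows at regions with MYC and both subunits (12.7 to 14.7), in 17.5% with MYC and MED17, in 15.2% with MYC and MED30 and in 3.62% of windows with both subunits but no MYC.

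The share with CACGTG in MYC-only windows differed from that with both subunits by 5.74 percentage points (1.72 to 10.4). Averaged within 5 bins of MYC fold the difference was 9.31 points, and within 5 bins of MYC peak width 9.47 points. Against regions with MYC and a single subunit the difference was 1.86 points (-3.15 to 7.21) for MED17 and 4.21 points (-2.21 to 10.3) for MED30, with both intervals including 0. At or under a MYC fold of 4.14, the median of the members' windows, 14.9% of MYC-only windows (9.87 to 21.2) held an E-box, against 6.36% (5.05 to 7.88) with both subunits. Above it the shares were 24.0% (17.7 to 31.2) and 16.4% (15.2 to 17.8). Close to the MYC summit the classes were nearer to each other: where 100 bases on each side of the summit lay in a window, 15 of 82 MYC-only regions (18.3%, 10.6 to 28.4) and 157 of 948 regions with both subunits (16.6%, 14.2 to 19.1) held the motif. Among windows with CACGTG, it lay within 50 bp of the summit in 46.2% for MYC only and in 46.0% for MYC with both subunits.

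The ETS-type letters CCGGAAGT, which are bound by the widely expressed ETS factors, went the other way. They were in 20 MYC-only windows (5.97%, 3.68 to 9.07) and in 11.2% of those with both subunits, a difference of -5.20 points (-7.48 to -2.0), with -4.90 within bins of MYC fold and -6.37 within bins of width. Regions with both subunits and no MYC held them in 10.5% of windows, and all promoter windows in 4.14%. With MYC and MED17 the share was 6.70% and with MYC and MED30 9.70%, and the intervals of both differences from MYC only included 0. Within 100 bases of the MYC summit, 3 of 82 MYC-only regions (3.66%, 0.761 to 10.3) and 79 of 948 with both subunits (8.33%, 6.65 to 10.3) held them, with overlapping intervals. The variant E-box CACGCG was in 29.3% of MYC-only windows and 25.0% of those with both subunits (difference 4.21 points, -0.580 to 9.45), against 11.4% of all windows.
For the remaining motifs the intervals of the difference from MYC with both subunits included 0. The GC box GGGCGG, a site of SP1-type factors, was in 79.1% of MYC-only windows, 78.2% with both subunits and 45.0% of all. The TATA box letters TATAAA were in 3.58%, 3.38% and 11.5%. The AP-1 letters TGANTCA were in 3.58%, 4.11% and 7.68%, and the palindromic NRF1 motif in 1.79%, 3.45% and 1.24%. Median GC content was 69.0% in MYC-only windows and 68.0% with both subunits, so both sets were GC-rich promoters beside 58.7% in all windows. CACGTG and CACGCG share their first 4 letters but cannot occupy the same position. A match describes letters in a window, not binding.

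**Figure D1:**
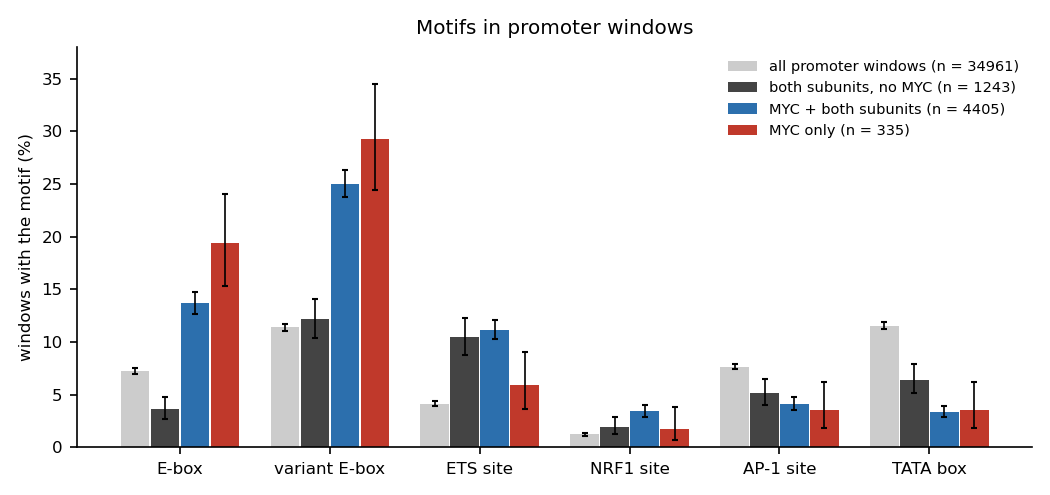
Share of promoter windows of 300 bases that held each motif on either strand, in percent; bars show MYC-only regions, regions with MYC and both subunits, regions with both subunits and no MYC, and all promoter windows, and error bars are exact 95% counting intervals. The E-box bar is at 19.4% for MYC only and 13.7% for MYC with both subunits, and the ETS bars are at 5.97% and 11.2%.

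By the rule used here, MYC-only regions mostly lay away from gene boundaries. The boundary share was 28.7% (26.6 to 30.8), against 66.6% of all regions with MYC, 43.3% of regions with MYC and MED30, 71.1% with MYC and MED17 and 78.9% with MYC and both subunits. The intervals of these 4 classes did not overlap. Among 428 boundary members whose gene has a known strand, 403 (94.2%, 91.5 to 96.2) lay within 1 kb of a gene start and 25 (5.84%, 3.82 to 8.50) at a gene end only. At regions with MYC and both subunits 1.82% (1.44 to 2.26) were at an end only.

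Of the 1301 members elsewhere, 504 lay between genes (38.7%) and 449 inside a protein-coding gene (34.5%). Another 99 lay inside a gene of another type, 98 at a long noncoding RNA boundary, 84 at an internal start of a protein-coding gene, 40 at a pseudogene and 27 at a small RNA gene. Internal starts, which are promoters of shorter isoforms, took 6.46% (5.18 to 7.93) of members elsewhere but 28.6% (26.2 to 31.0) of elsewhere regions with MYC and both subunits. Long noncoding RNA boundaries took 7.53% and 20.5%. Even away from the outer boundaries, regions with both subunits were thus at annotated starts more often than MYC-only regions.

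**Figure D2:**
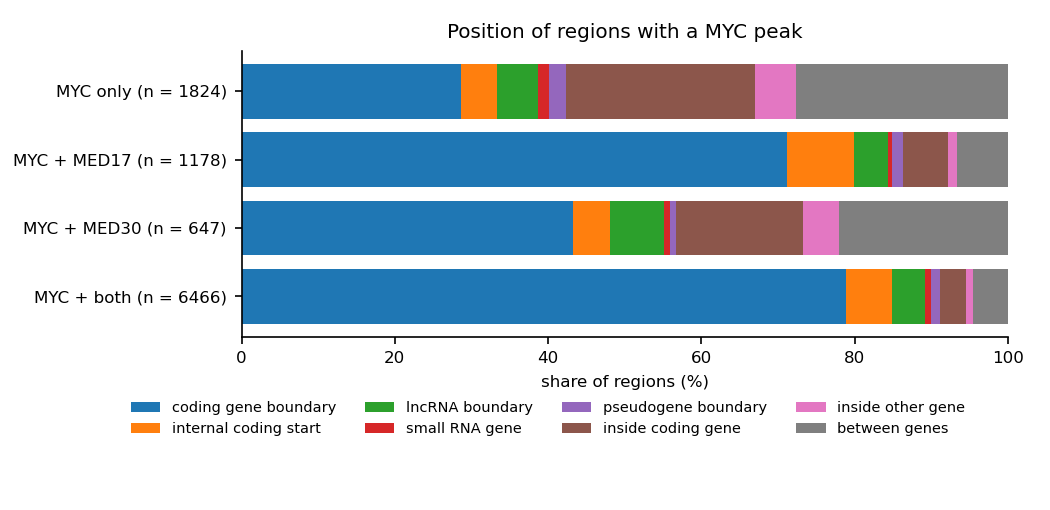
Position of regions with a MYC peak in parental cells, as the percent of each class in each kind of place, with the number of regions in each class. The boundary segment spans 28.7% of MYC-only regions and 78.9% of regions with MYC and both subunits.

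By chromosome, MYC-only regions made up 12.8% of regions with MYC on X, the lowest share, and 34.7% (27.5 to 42.5) on chromosome 21, the highest, followed by 26.6% on 22 and 25.5% on 20. On chromosome 21, 3 of the 58 members were at a gene boundary and 38 of the 58 lay within 5 Mb of a gene-free stretch, as did 33 of 86 on chromosome 20 and 26 of 68 on 22, against 266 of 1824 members in all (14.6%). Within 1 Mb of such a stretch lay 103 of the members elsewhere (7.92%, 6.51 to 9.52) and 3.44% of elsewhere regions with MYC and both subunits. No boundary member did.

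The MYC signal of the members was weak and narrow, as a description of the list that chose them. Median MYC fold was 3.99 at the boundary and 3.72 elsewhere, against 4.77 and 4.52 with both subunits. The median peak width was 343 and 301 bp, against 653 and 612 bp. The median summit held 18 fragments at the boundary and 17 elsewhere. Over 10 equal bins of MYC fold, MYC-only regions made up 39.9% of the regions with MYC in the lowest bin and 4.74% in the highest. A q-value above 0.001 (−log10 q under 3) was found for 27.7% of members and 6.06% of regions with both subunits.

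Being without an overlapping Mediator peak did not mean being far from one. The nearest MED17 or MED30 peak was a median of 5436 bp away for boundary members and 21610 bp for members elsewhere. It was within 1 kb for 211 boundary members (40.3%) and 175 members elsewhere (13.5%), and within 100 kb for 83.1% of all members. Thus 211 of 523 boundary members had Mediator next to the MYC peak, and 245 had no Mediator peak within 10 kb. Of the genes at boundary members, 45.6% had a Mediator peak at a boundary, against 51.0% of all protein-coding genes. The same Mediator lists chose the members, so these values are a description. At the edge of the rule, the 97 members within 100 bp of a Mediator peak had a median MYC fold of 3.84, and the 170 regions whose MYC peak overlapped one by at most 100 bp had 3.90. The region at KIF18B, a kinesin gene, touched a Mediator peak without overlap at a MYC fold of 2.94, and that at N4BP3 was 4 bp away at 3.61. Just outside the rule, RNF145 and PRICKLE3 overlapped by 3 bp at 7.58 and 5.18.

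**Figure D3:**
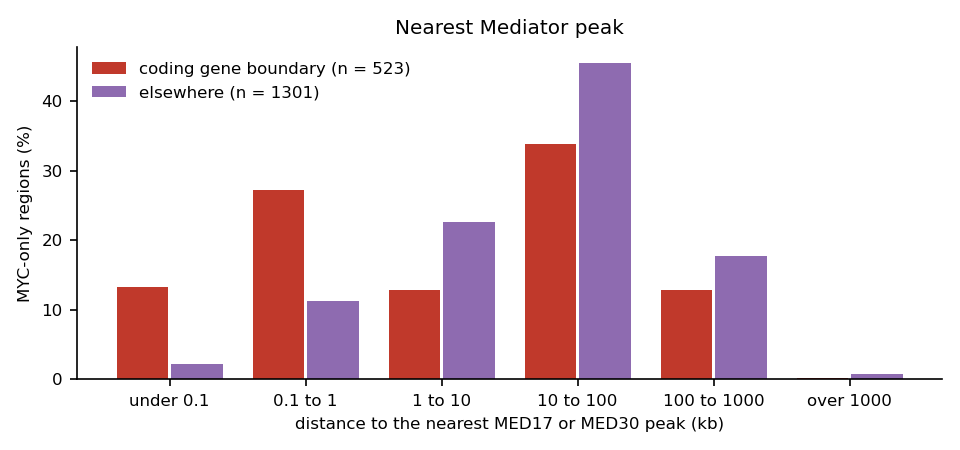
Distance from each MYC-only region to the nearest MED17 or MED30 peak in kb, as the percent of 523 gene boundary members and of 1301 members elsewhere. Boundary members were within 1 kb in 40.3% of cases and members elsewhere in 13.5%.

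MLLT1 held the strongest boundary member, with a parental MYC fold of 11.2 and 75 fragments at the summit. It had no peak in the hairpin line without doxycycline and a peak with a fold of 5.90 with it, on 6 fragments. Its nearest Mediator peak was 278 bp away, so MYC and Mediator were close neighbours at this promoter without overlapping.

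TBL1X, the corepressor subunit, followed with a parental fold of 10.9 on 75 fragments. It had a fold of 6.70 on 10 fragments without doxycycline and no peak with it. The nearest Mediator peak was 1197 bp away.

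PFN2, a profilin that binds actin monomers, had a parental fold of 10.9 on 88 fragments. Its fold was 9.32 on 14 fragments without doxycycline and 11.2 on 17 with it, so all 3 MYC lists held it strongly. A Mediator peak lay 109 bp away.

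SRC, the tyrosine kinase, had its MYC-only region 294 bp past the end of the gene with the higher coordinate. The fold was 8.25 on 46 fragments in parental cells, 9.94 on 15 without doxycycline and 5.32 on 6 with it. Its nearest Mediator peak was 21.5 kb away. The gene did hold MED17 and MED30 peaks, but not near this site.

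SHANK3, a scaffold of the postsynaptic density, had a member at its 3′ end, with a fold of 8.47 in parental cells and 4.47 without doxycycline. ARHGAP32 had folds of 7.70, 7.62 and 6.22 in the 3 lists. SCAP, which escorts the sterol-sensing transcription factors SREBP, had 6.59, 5.44 and 5.66, with the nearest Mediator peak 36.4 kb away. SCAP thus had MYC in all 3 lists at a gene start without a Mediator peak in the gene or within 1 kb of it.

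GPR176, an orphan G protein-coupled receptor, had folds of 6.54 in parental cells and 9.25 without doxycycline, on 23 and 13 fragments. ULBP1, a stress ligand for natural killer cells, had 6.85 and 5.86. MICAL2, which oxidises actin, had 6.70 and 6.17, and DAZAP1, an RNA-binding splicing regulator, had 6.67 and 4.88. None of these 4 had a peak with doxycycline.

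Of the 20 boundary members with the highest parental fold, which went down to 6.48 at PSMB3, 14 had a no-doxycycline peak, 5 a doxycycline peak and 4 both. The 5 with neither were at ERI3, FAM13A, MIPEP, which encodes a mitochondrial peptidase, the shared HCFC1R1 and THOC6 promoter, and PSMB3. Among those with a no-doxycycline peak alone were the pair TMEM102 and FGF11 (folds 8.16 and 4.76), SCFD2 (7.76 and 5.34), RBM38, which encodes an RNA-binding protein (7.14 and 5.29), and HBQ1, a globin gene (6.58 and 7.28). A Mediator peak lay within 1 kb of 6 of the 20, and none within 10 kb of 11. At the boundary, the highest of 5 bins of MYC fold held 26 MYC-only regions, from a fold of 6.26. Of these, 16 (61.5%) had a no-doxycycline peak and 5 (19.2%) a doxycycline peak. In the same bin the shares were 61.1% and 39.3% of regions with MYC and both subunits.

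**Figure D4:**
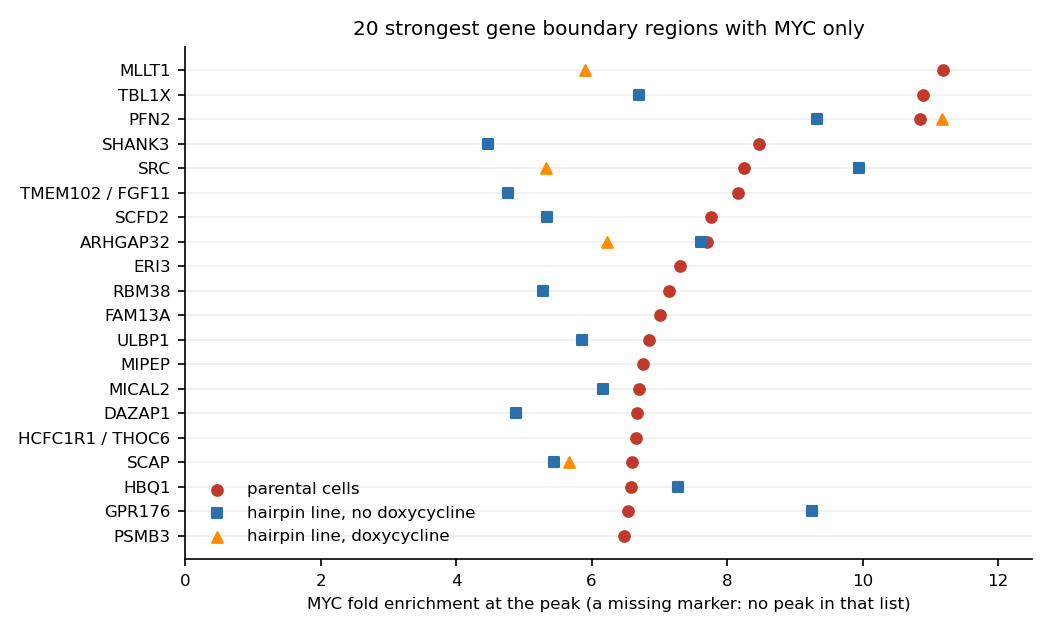
MYC fold enrichment (linear axis) at the 20 gene boundary MYC-only regions with the highest parental fold, in parental cells (circles) and in the hairpin line without (squares) and with doxycycline (triangles); a missing marker means no peak in that list. Folds run from 11.2 at MLLT1 to 6.48 at PSMB3 in parental cells, and 4 regions, at PFN2, SRC, ARHGAP32 and SCAP, have all 3 markers.

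Peaks in both hairpin-line lists were found at 12 of 523 boundary members (2.29%, 1.19 to 3.97). At boundary regions with MYC and both subunits, where median MYC fold was higher, the share was 8.39%. Among the 12 members, beside PFN2, SRC, ARHGAP32 and SCAP, were those at SLC35F2, DHX37, BRD2, the pair B3GALT6 and SDF4, MCF2L2, CNNM1 and FOXK1. SLC35F2, a solute carrier, had folds of 6.18 in parental cells, 9.72 without and 8.48 with doxycycline. BRD2, a bromodomain reader of acetylated histones, had 5.72, 8.18 and 4.85. FOXK1 had 5.40, 7.30 and 9.31. Folds of the hairpin-line lists are not on the scale of the parental list, as the background differs.

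Boundary members touched 601 of 19839 protein-coding genes (3.03%). Of the 601, 327 (54.4%) had a Mediator peak in the gene or within 1 kb of it, against 56.2% of all protein-coding genes, and 274 had none. The gene-level Mediator share rests on the lists that chose the members, so it is a description. The 19839 protein-coding genes include 12035 counted as without a MYC peak, so 56.2% is not the share of MYC-bound genes.

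Core growth genes of the MYC programme mostly held MYC together with Mediator, but this was not particular to them. The share was 75.0% of genes that MYC represses, 64.3% of lysosome and autophagy genes and 59.5% of actin and adhesion genes. It was 52.8% of RAS, MAPK and PI3K genes, 27.3% of neuronal genes and 21.2% of developmental transcription factors. Over all protein-coding genes, 3.03% had a MYC-only region at a boundary and a further 36.3% a MYC region with Mediator, and the counts in lists of this size are read against those shares. No MYC-only region was found at the 20 ribosomal protein genes or the 16 translation factor genes, all of which had a MYC region with Mediator. None was found at the 25 nucleotide synthesis genes, of which 21 had MYC with Mediator, nor at the 15 genes of the MYC network, of which 11 had. Zero in lists of 15 to 25 genes is near the overall share of 3.03%. Single members were at URB2 (fold 3.34) among 22 ribosome biogenesis genes and HK2, the first enzyme of glycolysis in many tumours (fold 2.91), among 18 glycolysis genes. Both genes also held Mediator, 266 and 206 bp from the MYC-only region.

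In signalling lists, 5 of 47 WNT, NOTCH and TGF-beta genes (10.6%, beside 3.03% of all protein-coding genes) had a MYC-only region, and 19 (40.4%, beside 36.3%) had MYC with Mediator. They were TBL1X, TGFB1 (fold 4.29) and TGFB2 (4.25), which encode ligands, AXIN2 (3.68), a feedback inhibitor of WNT, and HES1 (2.67), a NOTCH target. TGFB2 had no Mediator peak in or within 1 kb of the gene; the other 4 had. In the list of 36 RAS, MAPK and PI3K genes (8.33% with a MYC-only region) the members were at SPRY1 (5.57), a feedback inhibitor, MAP2K2 (4.98), a MAPK kinase, and TSC2 (4.77), an inhibitor of growth signalling. Of 34 genes of SRC and receptor kinase signalling, SRC and SHC1 (3.99), an adaptor of receptor kinases, had a MYC-only region.

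Against the same 3.03%, the shares in the next lists were 4.55% for chromatin regulators, 7.14% for actin and adhesion genes, 6.82% for neuronal genes and 1.92% for developmental transcription factors, each resting on 1 to 3 genes. Of 44 chromatin regulators, MLLT1 and BRD2 had a MYC-only region and 24 had MYC with Mediator. Of 42 actin and adhesion genes, 3 had a MYC-only region, among them PFN2 and ACTB, whose fold of 2.40 was near the lowest of the boundary members (2.37). Of 44 neuronal genes, 3 did: SHANK3, MAPT (3.37), which encodes tau, and STX1A (3.33), a syntaxin. Of 52 developmental transcription factors, DLX2 (3.07) did. Single members were found at the circadian gene NPAS2 (4.67, of 17), the melanocyte and lysosome regulator MITF (5.73, of 28), the intestinal factor CDX2 (3.65, of 16 classical pancreatic cancer genes) and the secretory granule gene CHGB (4.03, of 12 islet genes). None of these 4 genes held a Mediator peak.
No MYC-only region was found at 12 genes that MYC is known to repress (9 had MYC with Mediator), at 15 mesenchymal genes, or at 16 acinar, 12 immune and 10 fibroblast genes. A MYC region with Mediator was found at 3 of the mesenchymal, 1 of the immune and 1 of the fibroblast genes, and at none of the acinar genes. The lists hold few genes and were chosen with results of these data known, so their counts are a description.

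The strongest members overall were not at gene boundaries. The region chr17:22521351-22521568 had a MYC fold of 20.5 on 128 fragments and no peak in the hairpin line. It was 218 bp wide, lay at a pseudogene 184 kb from a gene-free stretch, and its nearest Mediator peak was 120 kb away. Next came chr18:80262911-80263229, 15.4 kb from the cell polarity gene PARD6G, with folds of 17.9, 20.4 and 14.2 in the 3 lists on 99, 43 and 21 fragments. The region chr1:236097141-236097397, 32.1 kb from NID1, a basement membrane gene, had 13.8, 14.8 and 9.79. Both were between genes and were strong in every MYC list.

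Inside protein-coding genes, the region in CATSPERD, a sperm calcium channel subunit, had folds of 12.6, 7.37 and 3.34. That in CACNA1C, a voltage-gated calcium channel, had 11.7 in parental cells and 8.88 with doxycycline, without a no-doxycycline peak. The region chr7:1741638-1742856, at a long noncoding RNA within ELFN1, had 11.6, 15.2 and 10.7. It was 1219 bp wide and held 176 fragments at its parental summit, and its nearest Mediator peak was 71.1 kb away.
Internal starts of SLC12A9, a solute carrier, and PDE4A, a cyclic AMP phosphodiesterase, had folds of 8.22, 9.93 and 7.98, and of 6.51, 8.53 and 6.74. On chromosome 22, chr22:18730404-18730696 had 12.1, 11.0 and 11.9, and chr22:18896252-18896597, 9.63 kb from DGCR6, had 10.6, 8.53 and 9.19. Of the 10 strongest members elsewhere, 7 had a no-doxycycline peak, 8 a doxycycline peak and 6 both. In the highest of 5 bins of MYC fold elsewhere, 38.7% of MYC-only regions had a no-doxycycline peak and 25.2% a doxycycline peak. For regions with MYC and both subunits these shares were 51.6% and 34.5%. Of the 10 strongest members elsewhere, 2 lay within 1 Mb of a gene-free stretch, and the part of repeats in their values was not tested.

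In the hairpin line without doxycycline, a library not used to choose the members, 181 of the 1824 had a MYC peak (9.92%, 8.59 to 11.4), against 19.0% of all regions with MYC. The count was 48 of 523 at the boundary (9.18%, 6.84 to 12.0) and 133 of 1301 elsewhere (10.2%, 8.63 to 12.0). With doxycycline it was 106 (5.81%, 4.78 to 6.99), against 11.0% of all regions with MYC: 26 at the boundary (4.97%) and 80 elsewhere (6.15%). Neither list held 1592 members (87.3%). The boundary and elsewhere shares had overlapping intervals in both lists.

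The shares were lower than at regions with MYC and both subunits, where 22.5% had a no-doxycycline peak and 13.1% a doxycycline peak. The differences were -12.6 percentage points (-14.3 to -10.9) and -7.30 points (-8.60 to -5.89). Averaged over bins of parental MYC signal, each weighted by its number of MYC-only regions, they were smaller. Within 5 bins of MYC fold they were -1.35 and -0.356 points at the boundary and -2.87 and -2.04 points elsewhere. With both places pooled they were -0.522 and 0.189 points. Within 5 bins of MYC peak width they were 0.819 and 0.802 points at the boundary, 2.38 and 0.976 elsewhere, and 2.53 and 2.01 pooled. The 2 lowest pooled bins of fold held 712 and 484 MYC-only regions and the highest 105. The pooled average over fold thus rested mostly on bins where few regions of either class had a hairpin-line peak. From the lowest to the highest bin of fold, the no-doxycycline share was 4.07%, 5.79%, 11.2%, 18.1% and 49.5% for MYC-only regions. With both subunits it was 3.80%, 5.76%, 10.4%, 20.3% and 59.1%. With doxycycline, the highest bin held a peak at 27.6% (19.3 to 37.2) of 105 MYC-only regions and at 37.7% (35.3 to 40.1) of regions with both subunits. The intervals of both classes overlapped in each of the 5 bins, in both lists. Such overlap does not show that the shares were equal, as no interval of the difference was computed by bin. In the highest bin the MYC-only share was the lower in both lists. In the top bin at the boundary, 5 of 26 MYC-only regions (19.2%, 6.55 to 39.4) had a doxycycline peak, against 39.3% (36.4 to 42.3).

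**Figure D5:**
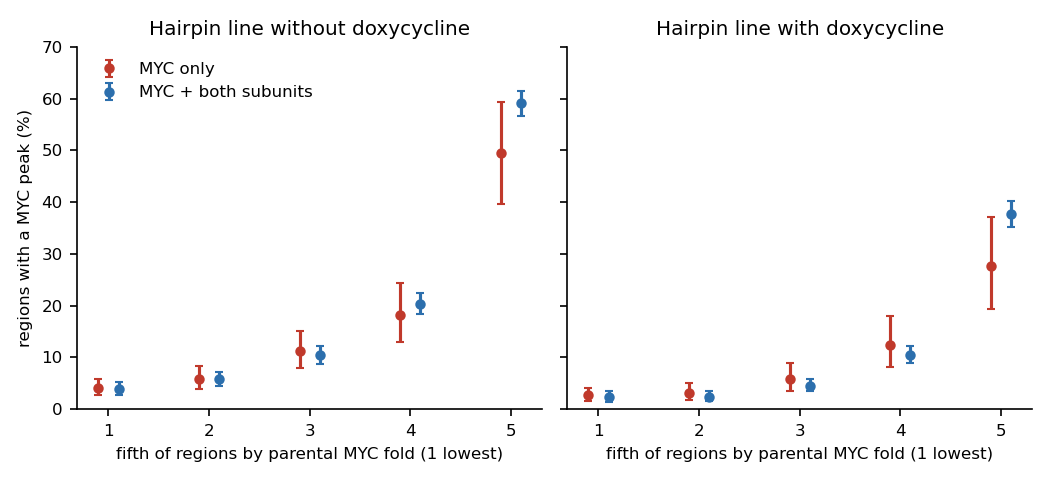
Percent of parental regions with a MYC peak in the hairpin line without (left) and with doxycycline (right), in 5 equal bins of parental MYC fold (1 the lowest), for MYC-only regions and regions with MYC and both subunits; error bars are exact 95% counting intervals. Both classes rise together, to 49.5% and 59.1% without doxycycline in the highest bin.

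Of the 181 members with a no-doxycycline peak, 55 also had a doxycycline peak (30.4%, 23.8 to 37.6), 12 of 48 at the boundary (25.0%, 13.6 to 39.6) and 43 of 133 elsewhere (32.3%, 24.5 to 41.0). Of all regions with MYC and a no-doxycycline peak, 38.4% had one with doxycycline, and of those with both subunits 39.7%. The difference from the latter was -9.33 points (-16.1 to -1.85), -5.11 points within bins of no-doxycycline fold and 5.23 within bins of width. Doxycycline and the background that stands in for library depth changed together, and their part in this count cannot be told apart.

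Members with an E-box were found more often in the hairpin line without doxycycline, and with doxycycline the intervals overlapped. Of the 65 MYC-only windows with CACGTG, 14 (21.5%, 12.3 to 33.5) had a no-doxycycline peak, against 22 of 270 without it (8.15%, 5.18 to 12.1). With doxycycline the counts were 8 of 65 (12.3%, 5.47 to 22.8) and 13 of 270 (4.81%, 2.59 to 8.09). MYC fold was also higher where the motif was present, as the shares by fold show, and its part in this was not tested.

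Members elsewhere with a Mediator peak nearby held a doxycycline peak at a higher share than those far from one. It was found at 15 of 175 members with a Mediator peak within 1 kb (8.57%, 4.88 to 13.7), at 27 of 294 with one 1 to 10 kb away (9.18%, 6.14 to 13.1) and at 38 of 832 with none within 10 kb (4.57%, 3.25 to 6.22). The differences from the last group were 4.00 points (0.312 to 9.24) and 4.62 points (1.38 to 8.65). Without doxycycline the shares in these groups were 13.1%, 11.9% and 9.01%, and the intervals of both differences included 0. At the boundary the doxycycline shares were 15 of 211 (7.11%, 4.03 to 11.5), 1 of 67 (1.49%, 0.0378 to 8.04) and 10 of 245 (4.08%, 1.97 to 7.38), and the intervals of both differences included 0. There, a no-doxycycline peak was found at 19 of 211 members with a Mediator peak within 1 kb (9.0%, 5.51 to 13.7) and at 25 of 245 with none within 10 kb (10.2%, 6.71 to 14.7). CACGTG was in 16 of 87 (18.4%, 10.9 to 28.1) and 26 of 129 windows (20.2%, 13.6 to 28.1). Elsewhere, members within 1 Mb of a gene-free stretch had a no-doxycycline peak in 20 of 103 cases (19.4%, 12.3 to 28.4), and those farther away in 113 of 1198 (9.43%, 7.84 to 11.2).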

How the data were processed

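ChIP-seq peak lists of MED17, MED30 and MYC in MIA PaCa-2 cells were used, 1 library per group. Per the submitters' processing notes, Trim Galore, Bowtie2, deepTools and MACS2 were used with hg38; versions and any input control were not given in the sources used here. The authors deposited, for each peak, fold enrichment as a ratio at the summit, −log10 p and −log10 q-values, a score equal to 10 times −log10 q rounded down, and another value, the summit's offset from the peak start. These were used only to describe, rank or bin peaks within a list.

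Regions were merged and classed with Python 3.11.15, numpy 2.4.6 and pandas 2.3.3, against RefSeq genes and promoters of GRCh38.p14 (19839 protein-coding genes, 34961 promoter windows, none on chromosome 8). Of the gene table, 696 scaffold and mitochondrial entries were left out, and 27 gene-free stretches resulted. Shares carry exact (Clopper-Pearson) 95% intervals (scipy 1.17.1) and differences of shares Newcombe intervals. Both kinds of interval were checked against other implementations at fixed counts. Region classing, the binned difference and the pileup recovery were tested on simulated data. Summit pileup and background were recovered from fold = (pileup + 1)/(background + 1) and a Poisson tail p, matched within 0.002 log10 units. The members, the 22 gene lists and the motifs were chosen with earlier results of these data known.

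Named are the 20 boundary members with the highest MYC fold, boundary members with peaks in both hairpin-line lists, members at list genes, and the 10 strongest other members and 10 others with peaks in both lists; those on chromosome 8 were left out, and 1 boundary member that the rule takes is not reported here. The values of members just inside and outside the overlap rule were added as examples. Peak thresholds, overlap, boundary distance, gene-free stretches, summit distance, and bins of fold or width were varied.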

Additional observations from a re-analysis of the deposited data

How the results depend on the processing

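Of 92 alternative values, 58 stayed near the reported one, 31 moved and 3 reversed; except where a sentence says so, the cause was not tested. The number of MYC-only regions was 454 with the upper 50% of the MYC list by fold, 4523 where sharing needed a reciprocal overlap of 50%, and 4086 with no gene-free stretch dropped. The boundary share was 58.2% with the upper 50% of each list, 35.2% with the upper 50% of MYC, 21.9% and 21.4% with peaks up to 500 bp and 2 kb apart merged, 53.8% with reciprocal overlap and 12.8% with no stretch dropped; by construction it was 23.7%, 34.0% and 42.3% for boundaries of 500 bp, 2 kb and 5 kb and 22.9% for gene starts only. The no-doxycycline share was 27.9%, 24.7% and 22.2% with the upper 50% of each list, the upper 50% of MYC and no stretch dropped, and the doxycycline share 15.9%, 14.3% and 11.9%; the share also found with doxycycline was 37.7% with the upper 50% of each list.

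The no-doxycycline difference from regions with both subunits was -10.4 and -10.5 points in the first 2 of those settings, -21.0 with reciprocal overlap, -4.27 with no stretch dropped, -10.8 for summits within 250 bp, -0.522 within bins of fold and 2.53 within bins of width. The doxycycline difference was -12.9 with reciprocal overlap, -4.18 with no stretch dropped, and reversed to 0.189 within bins of fold and 2.01 within bins of width. Within bins of fold it reversed in neither place alone (-0.356 at the boundary, -2.04 elsewhere). The CACGTG share was 27.6% with the upper 50% of MYC, 13.9% with reciprocal overlap and 7.46% (4.89 to 10.8) within 100 bases around the start. In those 100 bases it was 5.72% (5.05 to 6.45) with MYC and both subunits, with overlapping intervals. It was 9.25% with MYC and MED17 and 8.02% with MYC and MED30, both above the MYC-only share. The width bins, summit distances and the exclusion of regions near gene-free stretches were chosen after seeing the data. No paired analysis was possible because each group is 1 library.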
